A study of Mus musculus with 29 samples.

Results

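RNA sequencing of 3T3-L1 cells at day 2 of adipogenic differentiation was compared between cells that had been exposed to C70 (KDM5-C70), an inhibitor of the KDM5 histone demethylases, and cells that had received its solvent. The day 2 groups were taken from the sample labels and held 7 of the 29 libraries of the series, 4 of C70 and 3 of vehicle, and every one of the 11959 genes in the count table was tested. 3T3-L1 is a single clonal mouse line of embryonic fibroblast origin that forms white adipocytes in culture. All groups were grown to confluence, which defined day -2. The C70 group then received 10 µM compound and the vehicle group DMSO until day 0. At day 0 both groups were switched to induction medium, which supplied a PPARγ agonist, isobutylmethylxanthine, insulin and dexamethasone. They stayed in it until RNA was taken at day 2, so the inhibitor had been gone from the protocol for 2 days. The remaining 22 libraries, from days 0, 1 and 7, had the same 2 treatments and served to set the day 2 difference beside that of other days. In the protocol, induction medium began at day 0 and was replaced at day 2 by one with insulin and dexamethasone. Days 0 and 7 thus also differed from day 2 in medium. Nothing in the labels says that replicates were separate cultures, so the p-values measure the spread between these libraries, which may be technical.

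KDM5 enzymes remove methyl groups from lysine 4 of histone H3, a mark found at the start sites of transcribed genes. After induction, confluent 3T3-L1 cells re-enter the cell cycle for a brief round of divisions called mitotic clonal expansion. The early factors C/EBPβ and C/EBPδ then switch on Pparg and Cebpa, which together drive the genes of lipid synthesis, lipid storage and hormone secretion, while preadipocyte genes such as Dlk1 are turned down. Day 2 lies in the middle of this sequence.

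The 7 libraries held 16320275 to 23768093 counts, with 19073684 to 23768093 in vehicle and 16320275 to 19178452 in C70, so the C70 values rest on somewhat fewer reads. The first principal component of the 7 libraries held 82.6% of their variance and separated the groups. Vehicle replicate 1 stood apart from the other 2 vehicle libraries in several transcripts, among them Gm42418, a gene that overlaps ribosomal RNA sequence. Levels are given in CPM, reads scaled to a common library size. It had 25129 CPM there, and 11958 and 12964 CPM in vehicle replicates 2 and 3. In the C70 libraries it had 16100, 13132, 12100 and 19940 CPM, highest in replicate 4. Without vehicle replicate 1, 3595 genes were called in place of 3642, and without C70 replicate 4, 3542. The gene lists described below were chosen with earlier results of these data known, and they are given by counts, shares and medians. Day 7 vehicle replicate 1 also stood apart, with a correlation of 0.985 to 0.990 with the other 3 libraries of its group in log2 CPM, against 0.995 to 0.997 among those.

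A gene was called when its Benjamini-Hochberg adjusted P value in edgeR's quasi-likelihood test was under 0.05 and its log2 fold change exceeded 0.32 in size. C70 changed 3642 of 11959 genes at day 2 (30.5%). Expression rose for 2021 genes (16.9%) and fell for 1621 (13.6%). Rises were larger than falls. By more than 2-fold, 527 genes rose and 90 fell, by more than 4-fold 89 rose and 2 fell, and by more than 8-fold 17 rose and none fell. The median log2 fold change was 0.67 among called genes that rose and -0.49 among those that fell, and it was -0.0036 over all genes. In the vehicle libraries, the genes that rose had a median level of 2.95 CPM per kilobase of exon, against 7.60 for those that fell and 7.48 for those not called. The vehicle level also enters the fold change that sorted the genes, so these medians do not show that genes of low level responded more. All 4 C70 libraries lay on the same side of all 3 vehicle libraries for 3534 of the 3642 called genes, and for 57.2% of all genes tested. For the lists below, the shares called higher and lower are to be read against 16.9% and 13.6% of all genes, and the median log2 fold change against -0.0036.

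The transcripts of the inhibited enzymes themselves differed little. Kdm5c had 198, 191 and 186 CPM in the vehicle libraries and 179, 172, 186 and 179.8 CPM in the C70 libraries. Its log2 fold change was -0.10 (adjusted P = 0.227), and those of Kdm5a and Kdm5b were 0.12 and 0.07 (adjusted P = 0.275 and 0.258). For each of the 3 genes the groups overlapped. C70 acts on the enzymes and not on their messages, so these levels do not check the treatment. Of 20 genes for KDM5 enzymes and H3K4 methyltransferases, 2 rose and 3 fell (10% higher, 15% lower), with a median of -0.0075, shares near or under those of all genes. Kmt2a, which encodes the methyltransferase MLL1, rose by a log2 fold change of 0.42, and Setd1b, the catalytic subunit of a COMPASS complex, fell by 0.42 on the log2 scale. Men1, which encodes the MLL partner menin, fell by 0.39. The calls of the other 2 genes turned on single libraries. Kmt2c (0.34) was not called when replicate 1 (0.31) or 3 (0.28) of day 2 vehicle, or replicate 3 (0.31) or 4 (0.32) of day 2 C70, was left out. Setd1a (-0.34) was not called when replicate 1 of day 1 C70 (-0.32), replicate 2 of day 2 vehicle (-0.26) or replicate 1 of day 2 C70 (-0.30) was left out. Among 18 other JmjC demethylases 2 rose and 2 fell (11.1% higher, 11.1% lower), under both shares of all genes, with a median of -0.084. One of the rises, Kdm3a (0.34), was not called when replicate 3 of day 2 vehicle was left out (0.30). The others include Jmjd1c at 0.55 and Jarid2, a Polycomb partner without demethylase activity, at -0.43.

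The 12 largest rises among genes above the median level, with groups fully separated by the rule of choice, were Crocc2, Aqp1, Apod, Eno3, Cd33, Syt12, Spp1, Thy1, Spon2, Dcn, Ly6a and Olfml3. The level was the mean over all 7 libraries (median 30.3 CPM), and 9 of the 12 passed it only through their C70 libraries, since their vehicle means were under it. Crocc2 (chromosome 1 of GRCm38, 93168725 to 93231072), a relative of the ciliary rootlet protein rootletin, had 10.8, 9.37 and 8.65 CPM in the vehicle libraries and 271, 285, 273 and 278 CPM after C70. Each C70 library was thus far above each vehicle library, by 28.8-fold in the fit (log2 fold change 4.85, standard error 0.0957, adjusted P = 4.62e-26). Aqp1 (chromosome 6 of GRCm38, 55336432 to 55348555), a water channel, had 18.04, 15.7 and 19.6 CPM in vehicle and 285, 239.6, 249 and 267 CPM after C70. That is a rise of 14.7-fold (log2 fold change 3.87, standard error 0.131, adjusted P = 2.25e-20). Apod (chromosome 16 of GRCm38, 31296192 to 31314808), a secreted carrier of small lipids, went from 45.7, 39.1 and 44.97 CPM to 593, 615, 598 and 631 CPM, a 14.1-fold rise. Eno3 (chromosome 11 of GRCm38, 70657202 to 70662513), the muscle form of enolase, had 4.86, 5.32 and 3.94 CPM in vehicle and 57.3, 56.6, 55.8 and 56.2 CPM after C70. The 4 C70 libraries agreed closely for this gene, and the log2 fold change was 3.57. Cd33 (chromosome 7 of GRCm38, 43524216 to 43544428), a sialic acid-binding receptor best known from myeloid cells, had 12.8, 11.01 and 13.5 CPM against 121, 122, 103 and 106 CPM, while the leukocyte gene Ptprc was not in the table and not analysed here. Syt12, of the synaptotagmin family, rose by a log2 fold change of 2.95. The rest of the 12 encode surface or secreted proteins, namely Spp1 (osteopontin) at 2.85, Thy1 at 2.69, Spon2 (spondin 2) at 2.58, Dcn (decorin) at 2.57, Ly6a (Sca-1) at 2.54 and Olfml3 at 2.45.

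Among the 12 largest falls chosen in the same way were Thrsp, Gpd1, Insig1, Mvd, Mrap, Cyp51, Fdft1, G0s2, Tmem120b and Acss2. Of the 12, 5 had C70 means under the median level. Thrsp (chromosome 7 of GRCm38, 97412938 to 97417730), a nuclear protein tied to lipogenesis and also called Spot 14, had 97.1, 109.9 and 102 CPM in vehicle and 17.1, 21.1, 17.1 and 13.99 CPM after C70. It fell 5.96-fold (log2 fold change -2.57, standard error 0.109, adjusted P = 4.99e-18). Gpd1 (chromosome 15 of GRCm38, 99717515 to 99725005), the enzyme that makes glycerol 3-phosphate for triglycerides, went from 741, 766 and 735 CPM to 176, 225, 174 and 159.9 CPM, a 4.07-fold fall. C70 replicate 2 was the highest of the C70 libraries for both genes, yet far under every vehicle library. G0s2, an inhibitor of the triglyceride lipase ATGL, had 273, 258 and 276 CPM against 101, 115, 105 and 100.0 CPM. Every C70 library was under every vehicle library, as the rule of choice required. Mrap, an accessory protein of the ACTH receptor, fell by 1.499 on the log2 scale, and Tmem120b, a membrane protein of the nuclear envelope, by 1.35. Insig1, Mvd, Cyp51 and Fdft1 belong to the cholesterol genes described below, and Acss2 to those of fatty acid synthesis.

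**Figure D1:**
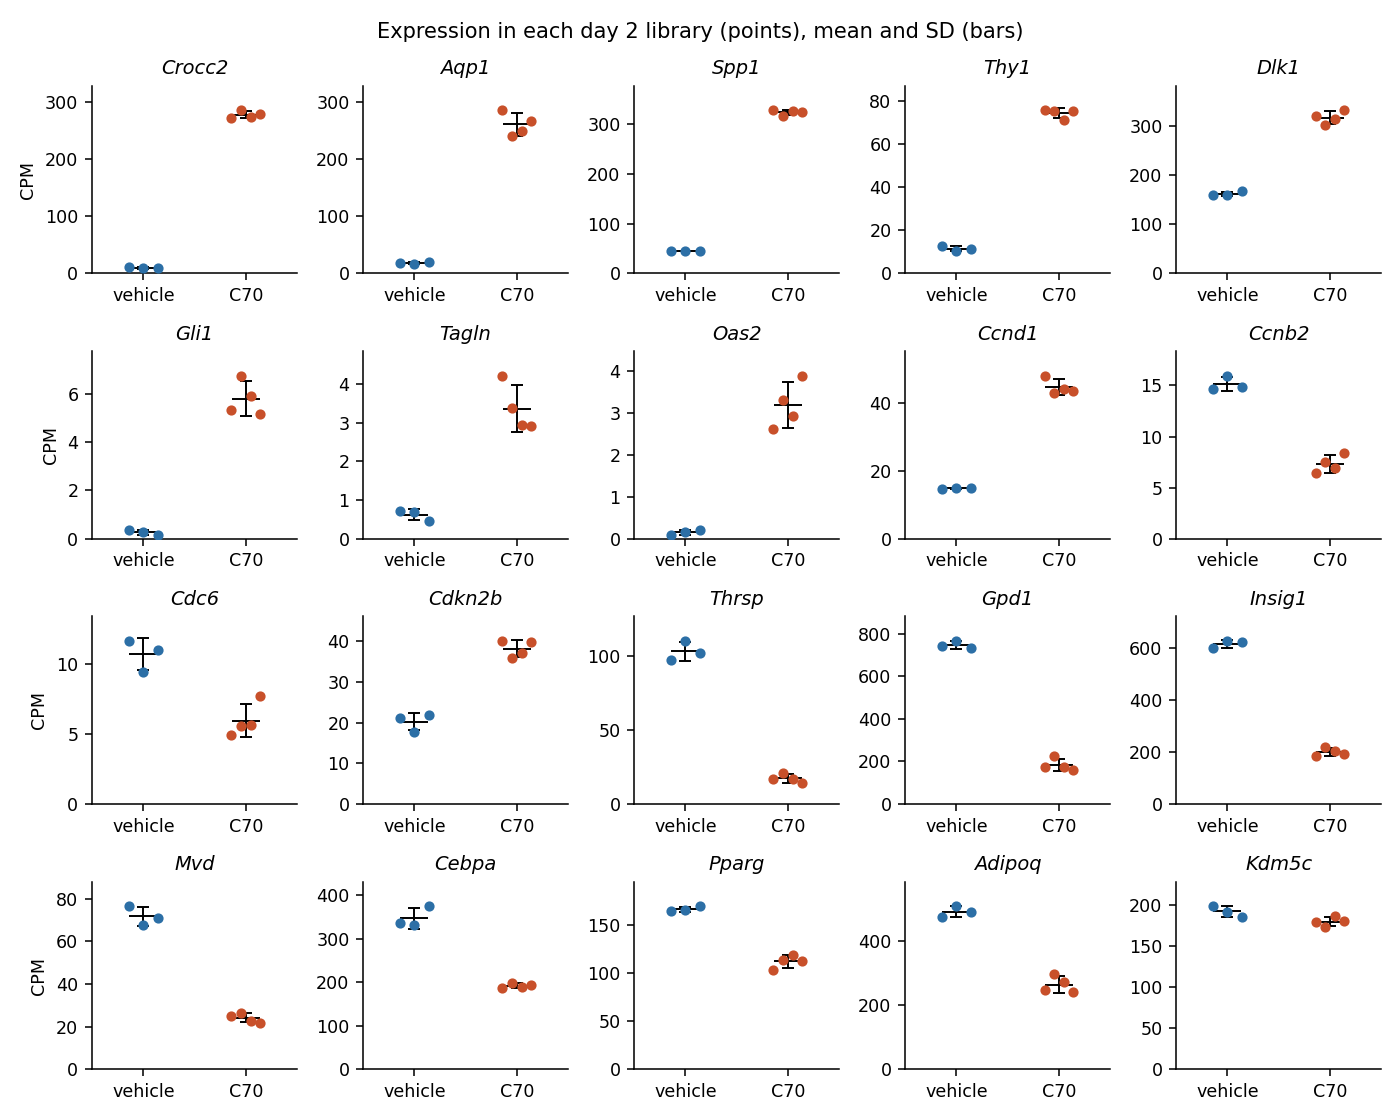
Each panel shows 1 gene, with the CPM of the 3 vehicle libraries in blue and the 4 C70 libraries in orange on a linear axis from 0, and a black bar for the mean with its SD. In 19 of the 20 panels the groups are apart, and Kdm5c alone has overlapping groups. The groups were apart for 57.2% of all genes tested, and the genes shown were chosen, not drawn at random.

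Several genes that mark preadipocytes or restrain adipogenesis rose after C70. Of 31 tested, 13 rose and 3 fell (41.9% and 9.68%, against 16.9% and 13.6% of all genes), with a median of 0.30. In bulk RNA, fewer cells of a type and less RNA per cell cannot be told apart, here and for every list that follows. Dlk1 (chromosome 12 of GRCm38, 109452823 to 109463336), also called Pref1, a transmembrane inhibitor of adipogenesis, had 159, 159 and 167 CPM in vehicle and 321, 301, 314 and 331 CPM after C70. The groups were apart, and the gene rose 1.96-fold (log2 fold change 0.97, standard error 0.0957, adjusted P = 6.65e-10). Thy1 (chromosome 9 of GRCm38, 44043384 to 44048579), a surface marker of fibroblasts, had 12.6, 10.4 and 11.5 CPM against 75.6, 75.2, 71.2 and 75.4 CPM. Ly6a, a marker of stromal progenitors, had 9.58, 9.33 and 12.4 CPM against 59.2, 55.8, 64.1 and 62.7 CPM. Both are among the 12 largest rises, whose choice required every C70 library to lie above every vehicle library. Among the other members that rose were the transcription factor genes Snai2 at a log2 fold change of 1.24, Gata2 at 1.08, Irf4 at 1.04, Sox9 at 0.82 and Zfp521 at 0.76. Wnt6, a ligand that opposes adipogenesis, had 0.6297, 0.8595 and 0.563 CPM in vehicle and 2.401, 2.98, 2.87 and 2.92 CPM after C70. Pdgfra, a receptor of progenitor cells, had a log2 fold change of 0.29 and was not called because its fold change was 1.22. The 3 genes of the list that fell were Foxo1 at -0.41, Tle3 at -0.39 and Rb1 at -0.33. Tle3 is also known as a partner of PPARγ, and Rb1 is the retinoblastoma protein. The call of Rb1 was lost, at values of -0.32 to -0.28, when any 1 of 6 libraries was left out, namely replicate 1 of day 1 C70, replicates 2 and 3 of day 2 vehicle, replicate 4 of day 2 C70, replicate 1 of day 7 vehicle and replicate 2 of day 7 C70.

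Of 30 adipogenic transcription factors 6 rose and 5 fell (20% higher, 16.7% lower), shares near those of all genes. The median was -0.029, and -0.055 to -0.013 with single libraries left out. Pparg (chromosome 6 of GRCm38, 115360951 to 115490399), the master factor of the adipocyte, had 165, 166 and 170.0 CPM in vehicle and 103, 114, 119.5 and 113 CPM after C70, a fall of 0.57 on the log2 scale (standard error 0.0527, adjusted P = 1.86e-10). Cebpa (chromosome 7 of GRCm38, 35119293 to 35121928), its partner, had 336, 331 and 375 CPM against 186, 199, 189 and 194 CPM and fell 1.81-fold. For both genes every C70 library was under every vehicle library. The early factor Cebpd rose by 0.63 and Klf5, which acts between the early factors and Pparg, rose by 1.05 on the log2 scale. Cebpb, the other early factor, had 93.6, 103 and 130.0 CPM in vehicle and 139, 133, 120.2 and 126 CPM after C70, with overlapping groups and an adjusted P value of 0.181. Ppargc1a, a coactivator of mitochondrial genes, rose by 1.03. Klf15, a late factor, fell by 0.64. Srebf1, which encodes the lipogenic factor SREBP-1, had a log2 fold change of -0.12 (adjusted P = 0.0727) and was not called.

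Genes of fatty acid and triglyceride synthesis fell broadly. Of 35 tested, 22 fell (62.9%, against 13.6% of all genes), 1 rose and the median was -0.63. Fasn (chromosome 11 of GRCm38, 120805846 to 120824547), fatty acid synthase, had 2699.6, 2726 and 2594 CPM in vehicle and 1348, 1379.8, 1405 and 1372 CPM after C70, a 1.94-fold fall (log2 fold change -0.96, standard error 0.0841, adjusted P = 5.92e-11). Acaca, which makes malonyl-CoA, fell by 0.44 on the log2 scale, Acss2, which makes cytosolic acetyl-CoA, by 1.27, and Scd1, a desaturase, by 0.67. In the triglyceride arm, Lpin1 fell by 0.58, while Gpam, the first acyltransferase, had a log2 fold change of -0.22 that did not reach the fold threshold. The exception was Lpin3, a phosphatidate phosphatase of low level, with 0.8996, 1.11 and 0.921 CPM in vehicle and 6.72, 4.84, 4.73 and 5.48 CPM after C70. It rose 5.54-fold.

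Lipid droplet and lipolysis genes numbered 14, of which 7 fell, 1 rose and 6 were not called (7.14% higher, 50% lower), with a median of -0.35. Mgll, monoacylglycerol lipase, had 14.98, 13.1 and 13.9 CPM in vehicle and 3.68, 4.84, 3.17 and 3.94 CPM after C70, a 3.57-fold fall. Cidec, which fuses droplets, went from 3919, 3930.0 and 3949.5 CPM to 2101, 2477, 2288 and 2192 CPM. Pnpla2, the lipase ATGL, fell by 0.66 on the log2 scale. Among the droplet coat genes, Plin3 rose by 0.73, and Plin1, Plin2 and Plin4 were not called (-0.12, 0.17 and -0.14).

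Of 21 adipokine and fatty acid uptake genes 12 fell and 3 rose (14.3% higher, 57.1% lower), with a median of -0.42. Adipoq (chromosome 16 of GRCm38, 23146536 to 23158028), the hormone adiponectin, had 477, 510.2 and 491 CPM in vehicle and 247, 298, 273 and 243 CPM after C70, a 1.86-fold fall (log2 fold change -0.90, standard error 0.0797, adjusted P = 7.85e-11). Fabp4 (chromosome 3 of GRCm38, 10204088 to 10208576), the fatty acid carrier of adipocytes, went from 7503, 7169.6 and 7798 CPM to 3492, 4033, 3895 and 3735 CPM. Slc2a4, the insulin-responsive glucose carrier GLUT4, had 19.1, 21.9 and 25.1 CPM against 9.07, 11.8, 8.7995 and 8.197 CPM. Each of these 3 was lower in every C70 library. Cfd (adipsin) fell by 0.82 on the log2 scale, Lpl (lipoprotein lipase) by 0.69, Retn (resistin) by 0.50 and the fatty acid translocase Cd36 by 0.43. The 3 rises were Vldlr at 0.76, the fatty acid carrier Slc27a1 at 0.57 and Angptl4, an inhibitor of lipoprotein lipase, at 0.41.

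Cholesterol synthesis had the lowest median of the 36 lists with more than 1 tested gene. Of its 28 genes, 22 fell (78.6%), none rose, and the median was -0.90. In the single libraries, the median deviation of the 28 genes from the vehicle mean was -0.91 to -0.81 after C70 and -0.02 to 0.011 in vehicle. The 2 groups did not overlap. Insig1 (chromosome 5 of GRCm38, 28071363 to 28078662), which holds the sterol sensor in the endoplasmic reticulum, had 599, 628 and 623 CPM in vehicle and 186, 220.0, 202 and 193 CPM after C70. It fell 3.08-fold (log2 fold change -1.62, standard error 0.0557, adjusted P = 3.03e-20). Mvd (chromosome 8 of GRCm38, 122433601 to 122443422), of the mevalonate pathway, had 76.5, 67.7 and 70.9 CPM against 24.98, 26.6, 22.9 and 21.9 CPM, and Cyp51 (chromosome 5 of GRCm38, 4081145 to 4104746), lanosterol demethylase, 1617, 1581 and 1619.9 CPM against 577, 641, 594 and 568 CPM. Other steps of the pathway fell too. Hmgcs1, an early enzyme, fell by 0.79 on the log2 scale, and Fdps and Fdft1, which make the farnesyl chain and squalene, by 1.91 and 1.38. Srebf2, which encodes the factor SREBP-2 that drives this pathway, had 132, 128 and 131 CPM against 104, 106, 105 and 104 CPM, a 1.246-fold difference that did not pass the threshold. It passed when replicate 2 of day 2 vehicle was left out (log2 fold change -0.33), and likewise for replicate 2 of day 2 C70 (-0.32).

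Promoter windows of 300 bases, from 250 before to 50 after a gene's start, were taken from RefSeq (GRCm38.p6) and matched by symbol for 9004 of 11959 genes. They were searched on both strands for CCAAT, the letters bound by NF-Y, and for the sterol element TCACNCCAC. CCAAT was present in 19 of the 21 cholesterol genes with a window (90.5%), against 43.6% of all genes with one. It was also present in 71.4% of the S phase genes and 75.5% of the G2/M genes described below. Of all genes that fell 51.2% had it, and of those that rose 40.9%. The sterol letters were present in 1 of the 21 (4.76%), against 1.31% of all. A match is a description of the letters only. The windows of 2 genes with large falls are shown with CCAAT, or ATTGG on the other strand, in capitals. That of Insig1, at chr5:28071162-28071461 on the plus strand, holds 1 match, and that of Mvd, at chr8:122443373-122443672 on the minus strand, holds 2.
Insig1: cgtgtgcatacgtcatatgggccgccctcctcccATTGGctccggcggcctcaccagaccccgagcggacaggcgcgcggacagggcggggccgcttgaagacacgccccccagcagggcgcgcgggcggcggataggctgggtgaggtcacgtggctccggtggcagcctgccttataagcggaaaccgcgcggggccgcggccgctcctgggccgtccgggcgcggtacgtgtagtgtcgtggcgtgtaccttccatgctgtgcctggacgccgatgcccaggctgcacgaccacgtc
Mvd: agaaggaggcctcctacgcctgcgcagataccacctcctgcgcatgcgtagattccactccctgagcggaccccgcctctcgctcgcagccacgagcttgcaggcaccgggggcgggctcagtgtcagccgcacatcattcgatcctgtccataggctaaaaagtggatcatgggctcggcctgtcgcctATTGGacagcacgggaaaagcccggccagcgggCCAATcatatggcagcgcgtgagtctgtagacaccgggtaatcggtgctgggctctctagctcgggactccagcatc

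Of 37 cyclins, CDKs and CDK inhibitors, 16 fell and 4 rose (10.8% higher, 43.2% lower), with a median of -0.22. Ccna2, the S and G2 cyclin, had 49.97, 51.7 and 53.1 CPM in vehicle and 30.04, 28.2, 31.5 and 27.4 CPM after C70. Its groups were apart, and it fell 1.76-fold (log2 fold change -0.82, standard error 0.0979, adjusted P = 3.11e-08). The G1/S cyclin Ccne1 fell by 0.50 on the log2 scale, and the mitotic cyclins Ccnb1 and Ccnb2 by 0.91 and 1.06. The D-type cyclins, which carry growth signals in G1, differed from each other. Ccnd1 had 14.6, 14.8 and 14.9 CPM against 47.9, 42.9, 43.998 and 43.4 CPM and rose 3.02-fold. Ccnd2 had 1562, 1566 and 1522 CPM against 1244, 1229, 1224 and 1232 CPM, a log2 fold change of -0.33 whose call was lost when replicate 1 of day 1 C70, replicate 1 of day 7 vehicle or replicate 2 of day 7 C70 was left out (-0.32 each time), and Ccnd3 had 142, 141 and 153 CPM against 166, 173, 175 and 174 CPM, which did not reach it. Their partner Cdk4 had 161, 151 and 155 CPM in vehicle and 188, 189, 205 and 189 CPM after C70, just under the threshold at a log2 fold change of 0.31. It passed when replicate 1 of day 1 C70 (0.33) or of day 2 vehicle (0.34) was left out. Of the CDK inhibitors, Cdkn2b (p15) had 21.1, 17.8 and 21.9 CPM in vehicle and 40.1, 35.8, 37.1 and 39.8 CPM after C70. It rose 1.89-fold, Cdkn1a (p21) rose 1.37-fold, Cdkn2c and Cdkn2d (p18 and p19) fell by 0.56 and 0.64 on the log2 scale, and Cdkn1b (p27) was not called at 0.16.

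Of 46 S phase genes 33 fell (71.7%, against 13.6% of all genes) and none rose, with a median of -0.45. Replication licensing and initiation genes were among them. Cdc6, which loads the MCM helicase, had 11.6, 9.41 and 10.999 CPM in vehicle and 4.96, 5.57, 5.63 and 7.68 CPM after C70. Gmnn (geminin), which prevents a second round of licensing, fell by 0.93 on the log2 scale, and the helicase subunit Mcm2 by 0.37. Pcna, the sliding clamp, had a log2 fold change of -0.23 and was not called. Of 57 G2/M genes 45 fell (78.9%) and 1 rose, with a median of -0.70. The per-library median of this list was -0.74 to -0.60 after C70 and -0.0089 to 0.021 in vehicle. Ttk, a kinase of the spindle checkpoint, had 15.7, 15.1 and 16.5 CPM against 8.22, 7.03, 6.35 and 7.48 CPM, the largest fall of the list. Ccnb2 had 14.7, 15.96 and 14.9 CPM against 6.404, 7.48, 6.88 and 8.401 CPM, and Cdc20, the activator of the anaphase-promoting complex, 31.9, 29.8 and 32.4 CPM against 18.8, 21.7, 21.3 and 20.8 CPM. Mki67, the proliferation marker Ki-67, fell 1.702-fold and Foxm1, a factor for mitotic genes, 1.62-fold. Psrc1, a microtubule-binding protein, was the exception, with 12.5, 10.5 and 10.999 CPM in vehicle and 34.95, 34.5, 37.3 and 36.2 CPM after C70.

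Many promoters of mitotic genes carry CCAAT letters together with a cell cycle genes homology region (CHR, TTTGAA), and many of S phase genes carry letters bound by E2F (TTTCCCGC or TTTGGCGC). None of these motifs contains another. The CHR letters were present in 34 of 49 G2/M genes with a window (69.4%), against 14.04% of all genes with one. CCAAT and CHR together were present in 27 of the 49 (55.1%), against 5.91% of all. E2F letters were present in 13 of 35 S phase genes (37.1%), against 3.59% of all and 4.08% of the G2/M genes. Among all genes that fell at day 2, 18.96% of those with a window had CHR letters and 4.62% had E2F letters, and among those that rose 14.5% and 2.49%. Of 3 windows chosen after their values were seen, that of Ccnb2 (chr9:70421505-70421804 on the minus strand) holds 3 CCAAT and 2 CHR matches, and that of Cdc20 (chr4:118437294-118437593 on the minus strand) holds 2 and 1, all in capitals. In the window of Cdc6 (chr11:98907901-98908200 on the plus strand) the capitals mark 1 E2F match, which is on the other strand.
Ccnb2: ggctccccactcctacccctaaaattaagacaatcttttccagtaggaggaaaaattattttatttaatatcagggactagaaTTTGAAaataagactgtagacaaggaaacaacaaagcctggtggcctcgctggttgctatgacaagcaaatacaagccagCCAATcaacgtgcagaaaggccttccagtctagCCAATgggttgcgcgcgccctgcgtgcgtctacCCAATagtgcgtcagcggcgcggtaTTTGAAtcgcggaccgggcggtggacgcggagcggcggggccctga
Cdc20: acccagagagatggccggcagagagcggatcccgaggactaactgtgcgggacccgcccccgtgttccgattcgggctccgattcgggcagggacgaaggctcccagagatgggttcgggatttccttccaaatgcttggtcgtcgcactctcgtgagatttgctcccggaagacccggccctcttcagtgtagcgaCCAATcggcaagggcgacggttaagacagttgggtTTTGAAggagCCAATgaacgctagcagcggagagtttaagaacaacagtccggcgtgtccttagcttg
Cdc6: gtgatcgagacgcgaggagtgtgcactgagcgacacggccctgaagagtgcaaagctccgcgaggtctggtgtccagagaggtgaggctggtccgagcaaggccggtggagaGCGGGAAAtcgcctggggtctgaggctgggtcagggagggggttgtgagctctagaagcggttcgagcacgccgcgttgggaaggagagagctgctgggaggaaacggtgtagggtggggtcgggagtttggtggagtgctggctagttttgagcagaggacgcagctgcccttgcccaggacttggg

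Of 27 genes in the list of the tumour suppressor p53 and related genes, most of them its targets, 11 rose and 3 fell (40.7% higher, 11.1% lower), with a median of 0.25. The rises include Cdkn2a, which acts upstream of p53, and Trp53, the gene of p53 itself, which leaves 9 without them. Trp53 rose 1.35-fold, from 50.3, 48.3 and 49.6 CPM to 63.2, 69.6, 64.4 and 69.2 CPM. Eda2r and Fas, both death receptors, rose by 1.27 and 0.87 on the log2 scale, and Trp53inp1 by 0.60. Mdm2, the p53 ubiquitin ligase and one of its best known targets, had 3109.9, 3103 and 3160.2 CPM against 3128, 3166, 3059 and 3117 CPM, with overlapping groups. The falls were Plk3 at -0.68, Tigar at -0.53 and Trp53inp2 at -0.45.

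**Figure D2:**
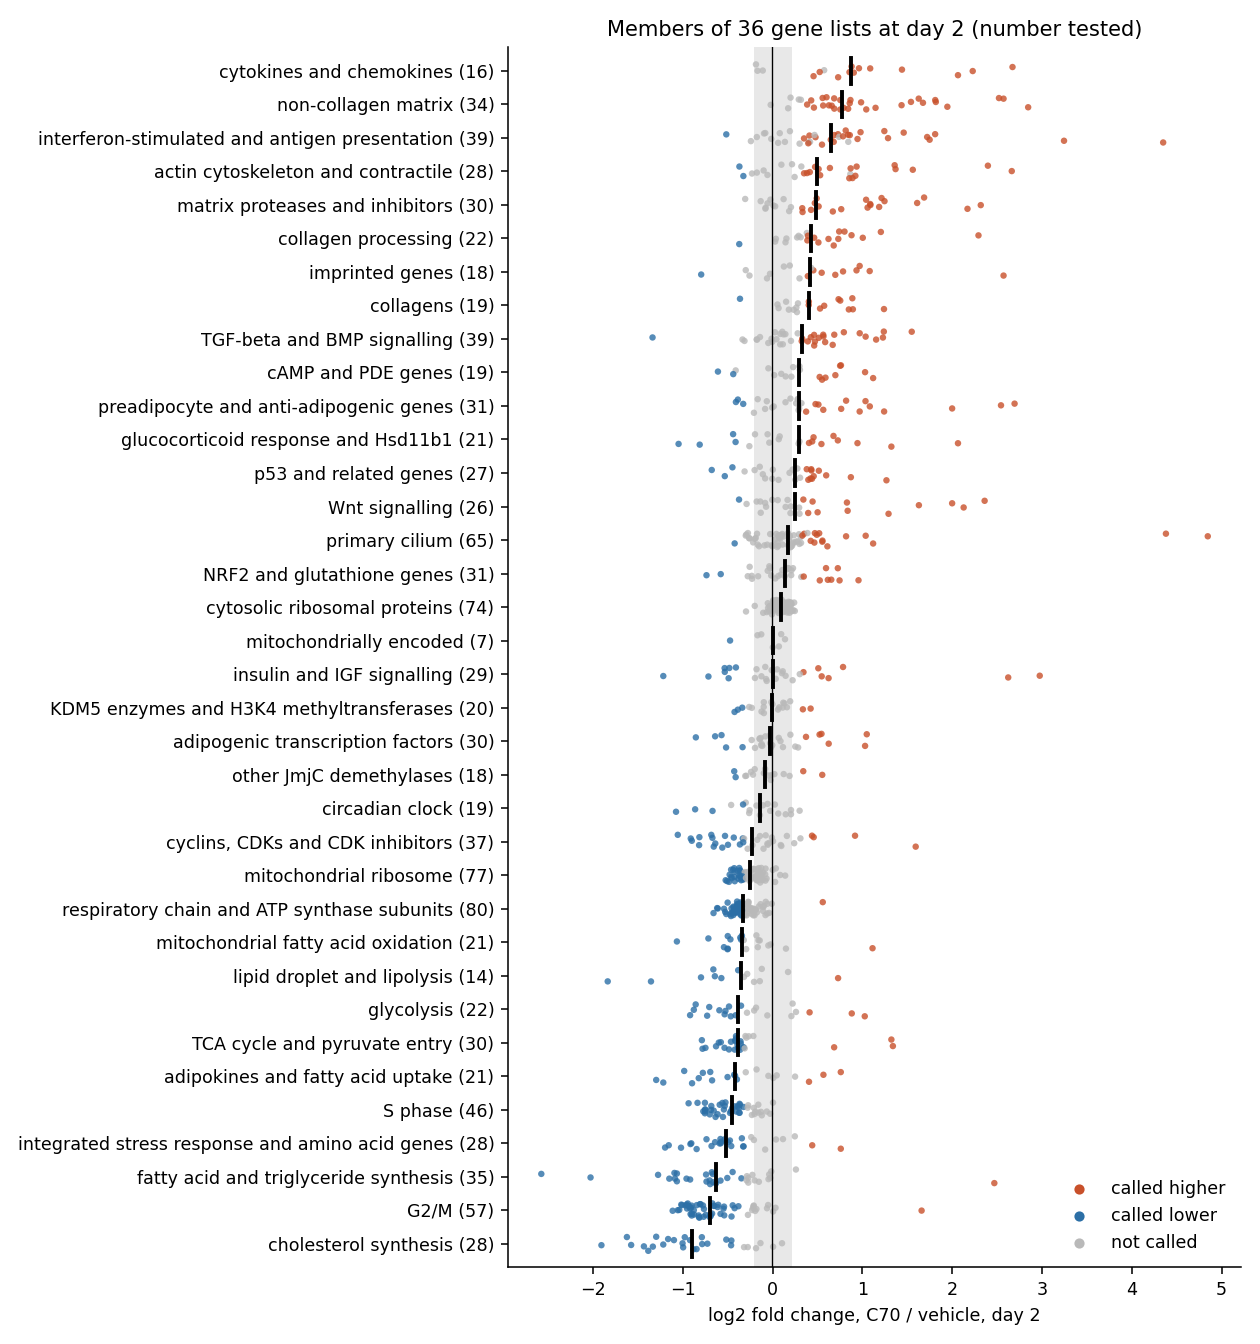
Each row is 1 of 36 gene lists, sorted by its median, and each point is 1 tested gene with its log2 fold change of C70 over vehicle at day 2. Orange and blue mark genes called higher and lower, a black bar is the list median, and the grey band spans the quartiles of all genes. Cholesterol synthesis is lowest at -0.90 and cytokines and chemokines are highest at 0.87.

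Of 80 nuclear genes of the respiratory chain and ATP synthase, 41 fell, 1 rose and 38 were not called (51.2% lower). The log2 fold change was negative for 79 of them, with a median of -0.33. Atp5g3, of the ATP synthase ring, had 640.2, 627 and 648 CPM in vehicle and 389.9, 421, 413 and 396 CPM after C70, and Cycs, cytochrome c, 297, 276 and 287 CPM against 177, 189, 200.4 and 186 CPM. The groups were apart for both. Atpif1, an inhibitor of ATP synthase, was the gene that rose, at 0.56. Of 77 mitochondrial ribosome genes 25 fell, none rose and 52 were not called (0% higher, 32.5% lower), with a median of -0.25. The adenine nucleotide carrier Slc25a5 fell by 0.37 on the log2 scale, and its paralog Slc25a4 was not called at 0.10. Of 7 tested transcripts encoded in mitochondrial DNA, 1 fell (mt-Nd6) and none rose (0% higher, 14.3% lower), a lower share near the 13.6% of all genes. Their median was 0.0028, and -0.024 to 0.028 with single libraries left out. Of the 74 cytosolic ribosomal protein genes none was called, with a median of 0.096, and 61 of them had positive log2 fold changes. Of the 74 genes, 1 was called lower when replicate 2 of day 2 vehicle or replicate 3 of day 2 C70 was left out.

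In the TCA cycle and pyruvate entry, 22 of 30 genes fell and 3 rose (10% higher, 73.3% lower), with a median of -0.39. Pdhb, of pyruvate dehydrogenase, had 305, 299 and 304 CPM in vehicle and 174, 179, 181 and 168 CPM after C70. Regulators of that enzyme moved in different directions. Its kinase Pdk4 had 86.2, 95.98 and 93.1 CPM against 242, 210.0, 231 and 236 CPM and rose 2.502-fold, its phosphatase Pdp1 rose 2.53-fold, and the kinase Pdk1 fell 1.68-fold. In mitochondrial fatty acid oxidation 11 of 21 genes fell and 1 rose (4.76% higher, 52.4% lower), with a median of -0.34. The gene that rose was Cpt1a, the gate for fatty acids into mitochondria, with 66.7, 62.8 and 60.4 CPM in vehicle and 139, 127, 138 and 144 CPM after C70. Acsl1, which activates fatty acids for either fate, had 6599.5, 6594 and 6705 CPM against 3066, 3332, 3163 and 3122 CPM, a 2.09-fold fall. In glycolysis 12 of 22 genes fell and 3 rose (13.6% higher, 54.5% lower), with a median of -0.38. Hk2, the first enzyme, had 307, 332 and 311 CPM against 161, 172, 175 and 162 CPM, and Ldha, lactate dehydrogenase, 1125, 1118 and 1132 CPM against 573, 634, 627 and 618 CPM. Hk1, the other hexokinase, rose by 0.41 on the log2 scale, and Eno2, the neuronal enolase, by 0.88. Slc2a1, the basal glucose carrier GLUT1, was not called at -0.28.

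Of 28 integrated stress response and amino acid supply genes, many of them targets of ATF4, 20 fell and 2 rose (7.14% higher, 71.4% lower), with a median of -0.51. Atf4 fell 1.41-fold, from 249, 241 and 260.2 CPM to 176, 184, 173 and 176 CPM. Psat1, of serine synthesis, had 547, 532 and 555 CPM in vehicle and 262, 281, 266 and 266 CPM after C70, and Trib3, a pseudokinase, 27.5, 26.4 and 27.4 CPM against 12.5, 13.9, 11.5 and 10.8 CPM. All 3 were lower in each C70 library. Ddit3, the stress factor CHOP, was not called at -0.21. Among 31 NRF2 and glutathione genes 8 rose and 2 fell (25.8% higher, 6.45% lower), with a median of 0.14, and Nqo1, a standard NRF2 target, was not called at 0.18. Gstm2 rose 1.94-fold, while the cystine carrier Slc7a11 fell 1.66-fold and Sod1, cytosolic superoxide dismutase, 1.49-fold.

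Most genes of the extracellular matrix rose. In the list of matrix proteins other than collagens, 29 of 34 rose (85.3%, against 16.9% of all genes), none fell, and the median was 0.77. Spp1 (chromosome 5 of GRCm38, 104435118 to 104441050), a phosphoprotein of bone and wounds, had 45.5, 44.6 and 45.2 CPM in vehicle and 328, 318, 326 and 325 CPM after C70. It rose 7.19-fold (log2 fold change 2.85, standard error 0.0764, adjusted P = 8.24e-23). Dcn (chromosome 10 of GRCm38, 97479609 to 97518143), a small proteoglycan that coats collagen fibres, had 41.02, 40.97 and 41.8 CPM against 243, 270.0, 244 and 225 CPM, and the laminin chain Lama5 had 8.501, 9.13 and 6.55 CPM against 48.9, 42.4, 46.5 and 48.7 CPM. In all 3 the C70 libraries lay several-fold above vehicle, which the choice of Spp1 and Dcn among the largest rises had required in direction. Other members that rose include Fn1 (fibronectin) at a log2 fold change of 0.99, Fbn1 (fibrillin) at 0.86 and Sparc (osteonectin) at 0.60. Of 19 collagens 10 rose and 1 fell (52.6% higher, 5.26% lower), with a median of 0.40. The fall, of Col7a1 (-0.36), was not called when replicate 2 of day 2 vehicle or replicate 4 of day 2 C70 was left out (-0.31 both times). Col3a1 (chromosome 1 of GRCm38, 45311538 to 45349706) had 1889, 1888 and 1863 CPM in vehicle and 3548, 3399.9, 3579 and 3454 CPM after C70, and Col1a1 rose by 0.75 on the log2 scale. The basement membrane collagen Col4a1 was not called at 0.28. Of 22 collagen processing genes 13 rose and 1 fell (59.1% higher, 4.55% lower), with a median of 0.43. Lox, which crosslinks collagen and elastin, had 191, 192 and 199 CPM against 485, 430.4, 429.6 and 443 CPM, and the hydroxylase Plod3 fell by 0.37. Of 30 matrix proteases and inhibitors 19 rose and none fell (63.3% higher), with a median of 0.48. Among them were Mmp3, a stromelysin, with 1.62, 0.941 and 1.23 CPM in vehicle and 6.88, 5.57, 4.01 and 6.096 CPM after C70, and Adam8 at 1.69.

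Actin cytoskeleton and contractile genes rose in 17 of 28 cases and fell in 2 (60.7% higher, 7.14% lower), with a median of 0.49. Mylk, myosin light chain kinase, had 68.4, 74.1 and 59.5 CPM in vehicle and 200.1, 204, 203 and 189 CPM after C70. The classical smooth muscle gene Tagln was low in vehicle, at 0.7197, 0.696 and 0.4604 CPM, and reached 4.22, 3.37, 2.93 and 2.92 CPM. Lmod1, a nucleator of actin in smooth muscle, had 0.135, 0.246 and 0.153 CPM against 1.44, 0.731, 1.197 and 1.33 CPM. The groups were apart for these 3 genes, and the last 2 rest on low counts. Non-muscle myosin Myh10 fell by 0.37 on the log2 scale. The other fall, of Vcl (-0.32), lay on the threshold and was lost when any 1 of 8 libraries was left out (-0.32 to -0.31), namely replicate 1 of day 1 C70, replicates 1 and 2 of day 2 vehicle, replicates 1, 2 and 4 of day 2 C70, replicate 1 of day 7 vehicle and replicate 2 of day 7 C70.

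Interferon-stimulated and antigen presentation genes numbered 39, of which 23 rose and 1 fell (59% higher, 2.56% lower), with a median of 0.65. Oas2, a sensor of double-stranded RNA, had 0.08996, 0.164 and 0.205 CPM in the vehicle libraries and 2.61, 3.32, 2.93 and 3.89 CPM after C70. Ifi44 had 1.57, 1.68 and 1.13 CPM against 13.8, 14.2, 12.9 and 15.3 CPM and rose 9.48-fold. Of the genes for class I antigen presentation in the list, B2m rose by 0.86, H2-K1 by 0.81 and Tap1 by 0.78 on the log2 scale, while Tap2 (0.30), Tapbp (0.062) and H2-T23 (0.14) were not called. Of the interferon signal complex, Stat2 rose by 0.69 and Irf9 by 0.68. Irf7, which amplifies the response, had overlapping groups and a log2 fold change of -0.24 (adjusted P = 0.29). Between the C70 libraries the list median ran from 0.38 to 0.71, highest in replicate 4. With single libraries left out, the median fold change ran from 0.49, without replicate 4 of day 2 C70, to 0.68. In those runs 18 to 23 genes rose.

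Cytokines, chemokines and acute phase genes rose in 12 of 16 cases and fell in none (75% higher), with a median of 0.87. Il1rl1, the receptor ST2 for interleukin 33, had 7.92, 6.59 and 7.62 CPM in vehicle and 48.6, 42.97, 46.6 and 49.3 CPM after C70, a 6.37-fold rise. The complement protease C1s1 had 8.59, 6.79 and 8.49 CPM against 40.2, 33.8, 39.5 and 35.1 CPM. Saa3, an acute phase protein, had 9.31, 8.8000 and 9.26 CPM against 43.4, 27.8, 40.8 and 40.5 CPM. Csf1, the macrophage growth factor, rose by 1.09 on the log2 scale, and the chemokine Cxcl12 by 0.52. The feedback genes Nfkbia and Tnfaip3 of NF-κB were not called, at -0.17 and -0.18.

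In the list of primary cilium and Hedgehog genes, 15 of 65 rose and 1 fell (23.1% higher, 1.54% lower), with a median of 0.17. When replicate 4 of day 2 C70 was left out the median was 0.11 and 2 fell. Beside Crocc2, the largest rise was that of a Hedgehog effector. Gli1 (chromosome 10 of GRCm38, 127329882 to 127341974), whose expression is a readout of the pathway, had 0.3598, 0.287 and 0.153 CPM in vehicle and 5.34, 6.75, 5.93 and 5.17 CPM after C70. It rose 20.8-fold (log2 fold change 4.38, standard error 0.248, adjusted P = 3.59e-15), from a vehicle level under 1 CPM. Gli2 rose by 1.04 and the receptor and target Ptch1 by 0.49 on the log2 scale. Ift88, of the intraflagellar transport train, was not called at 0.22, and neither was Crocc, the paralog of Crocc2, at 0.076. In TGF-β and BMP signalling 20 of 39 genes rose and 1 fell (51.3% higher, 2.56% lower), with a median of 0.32. The number that fell was 2 when any 1 of 9 libraries was left out, namely replicate 2 of day 0 vehicle, replicates 1 and 2 of day 1 vehicle, replicate 4 of day 1 C70, replicates 1 and 2 of day 2 vehicle, replicates 1 and 4 of day 2 C70 and replicate 4 of day 7 C70. It was 0 to 3 under other scalings, filters and tools. Fstl1, a secreted BMP antagonist, had 180.4, 145 and 169.6 CPM against 514, 441, 475 and 502 CPM, and Id2, a BMP target, fell 2.52-fold. Tgfb1 was not called at 0.28, and neither was Smad7, a direct target of the pathway, at 0.09. In Wnt signalling 11 of 26 genes rose and 1 fell (42.3% higher, 3.85% lower), with a median of 0.25. The number that fell was 2 when replicate 1 of day 2 vehicle or replicate 4 of day 2 C70 was left out. The antagonist Dkk3 had 2.47, 2.09 and 1.48 CPM in vehicle and 11.2, 10.4, 9.22 and 11.01 CPM after C70, and Ccn5 rose 4.37-fold. Lef1, a nuclear mediator, fell by 0.37.

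Of 29 insulin and IGF genes 7 rose and 7 fell (24.1% higher, 24.1% lower), with a median of 0.0020. The binding proteins Igfbp6 and Igfbp3, which hold IGF outside the cell, rose from 5.94, 5.44 and 4.96 CPM to 43.3, 40.1, 45.1 and 43.4 CPM and from 0.3598, 0.327 and 0.4604 CPM to 2.88, 2.08, 2.15 and 2.31 CPM. Irs1, the receptor's docking protein, had overlapping groups and a log2 fold change of 0.00202. Of 21 glucocorticoid response genes 9 rose and 4 fell (42.9% higher, 19% lower), with a median of 0.29. Hsd11b1, which regenerates active glucocorticoid, had 33.8, 34.995 and 31.3 CPM in vehicle and 63.7, 67.04, 66.3 and 60.6 CPM after C70, and the metallothionein Mt2 386, 404 and 422 CPM against 178, 201, 201 and 202 CPM. Fkbp5, a target that responds strongly to dexamethasone, had 1196, 1245 and 1214 CPM against 1151, 1176, 1230.4 and 1197 CPM with overlapping groups, and the receptor Nr3c1 was not called at 0.07. Of 19 cAMP and phosphodiesterase genes 8 rose and 2 fell (42.1% higher, 10.5% lower), with a median of 0.30. Adcy3, an adenylyl cyclase of cilia, rose 2.17-fold and Pde3b, the insulin-controlled phosphodiesterase, fell 1.52-fold.

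Imprinted genes, expressed from 1 parental copy in at least some tissues, rose in 9 of 18 cases and fell in 1 (50% higher, 5.56% lower), with a median of 0.41. Whether they were so expressed in these cells was not tested. The largest rise of the list was that of Dcn (2.57), which is also among the matrix genes above. Igf2r had 898, 864 and 837 CPM in vehicle and 1564, 1346, 1510.3 and 1552 CPM after C70, and Airn, the noncoding RNA read from the opposite strand of the same locus, 16.96, 17.1 and 13.05 CPM against 33.4, 32.8, 33.8 and 33.8 CPM. The use of strand in counting is not stated in the sources used here, so part of the reads of either could come from the other. Peg3 rose by 0.93, Ndn by 0.70 and Grb10 by 0.55 on the log2 scale. Snrpn fell by 0.79. Of 28 germline genes 1 was in the table and the other 27 were not analysed here. The tabled gene, Taf9b, fell by 0.51. Of 19 circadian clock genes 4 fell and none rose (21.1% lower), with a median of -0.14. With single libraries left out, the median ran from -0.21 to -0.085 and 3 to 5 fell. When replicate 2 of day 2 C70 was left out, 1 rose. Per3 fell at -0.86, while Arntl, the core activator BMAL1, was not called at 0.06.

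The labelled cell type, adipocyte, was checked against markers in the table. Of 14 markers of mature adipocytes 11 were tabled, and 8 of these fell (72.7%) and none rose, with a median of -0.80. Their summed level was 15995 to 16555 CPM in the vehicle libraries and 8786 to 10072 CPM after C70. All 10 fibroblast markers were tabled, of which 9 rose and none fell, with a median of 0.82 and a summed level of 7944 to 8330.5 CPM in vehicle and 13134 to 14481 CPM after C70. Markers of both kinds were thus present in both groups. The 11 adipocyte markers are also members of the lipid and adipokine lists above. Several fibroblast markers, among them Thy1, Pdgfra, Col1a1, Col3a1, Fn1 and Dcn, are in the preadipocyte, collagen and matrix lists. These counts therefore largely repeat values given there. Of other lineages, smooth muscle markers rose in 5 of 6 tabled cases, with summed levels of 85.3 to 101 CPM in vehicle and 254 to 272 CPM after C70. Of 8 osteoblast markers 2 were tabled, Runx2 and Spp1, and both rose, with summed levels of 71.9 to 77.03 CPM in vehicle and 362 to 369.7 CPM after C70. In every library most of the smooth muscle sum was Mylk, and most of the osteoblast sum was Spp1, which was chosen above among the largest rises. Of 8 chondrocyte markers 4 were tabled and 2 rose, Sox9 and Prg4, with 123 to 131 CPM against 198 to 222 CPM. Of 9 skeletal muscle markers 1 was tabled, Des, which is also in the smooth muscle list, and it rose, with 3.48 to 3.64 CPM against 4.76 to 5.39 CPM. Of 12 brown or beige markers 1, Ppargc1a, was tabled, and of 8 endothelial and 7 epithelial markers none. Of 10 macrophage markers 2 were tabled, with summed levels of 3.07 to 4.14 CPM in vehicle and 9.02 to 10.1 CPM after C70. Cd68, a lysosomal protein of macrophages that other cells also make, had 1.754, 1.68 and 1.33 CPM against 6.35, 6.52, 6.94 and 6.92 CPM. The other, Cd14, rose by 0.49 on the log2 scale. Its call was lost when replicate 2 or 3 of day 2 vehicle or replicate 2 or 4 of day 2 C70 was left out (0.40 to 0.49). It was also lost with a replicate block in the day 2 libraries alone (0.46). Ptprc and Adgre1, which define leukocytes and macrophages, were not in the table and were not analysed here. Whether changes in the share of cell types have a part in any result above was not tested.

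The C70 difference at day 2 was then compared with that at other days through interaction contrasts in the same fit. It differed from day 1 for 1656 genes (13.8%), from day 0 for 3181 (26.6%) and from day 7 for 2504 (20.9%). Against day 1 it was more positive for 880 genes (7.36%) and more negative for 776 (6.49%). Against day 0 these were 1780 (14.9%) and 1401 (11.7%), and against day 7 they were 1081 (9.04%) and 1423 (11.9%). These 3 contrasts share the day 2 libraries. Without day 7 vehicle replicate 1, which stood apart, 2593 genes differed from day 7, 1111 more positive and 1482 more negative. Cholesterol synthesis genes had medians of 0.16, -0.32, -0.90 and -0.30 at days 0, 1, 2 and 7. The day 2 difference of this list was more negative than that of day 1 in 17 of 28 genes, of day 0 in 24 and of day 7 in 17, and more positive in none. Fatty acid and triglyceride synthesis genes had medians of 0.095, -0.16, -0.63 and -0.025. By the test, 24 of 35 were more negative and 2 more positive at day 2 than at day 7. G2/M genes had medians of -0.046, -0.34, -0.70 and 0.019, with 23 of 57 more negative and 1 more positive at day 2 than at day 1. S phase genes, at -0.057, -0.44, -0.45 and -0.035, had 1 of 46 more negative and 1 more positive. Respiratory chain genes stood at -0.33 at day 2 and -0.31 at day 7, and 2 of 80 differed between these days. Without day 7 vehicle replicate 1 the day 7 median was -0.19 and 10 of 80 differed, all more negative at day 2. Collagens had medians of 0.40 at day 2 and 0.80 at day 7. Of the 19, 11 were more negative and 2 more positive at day 2 than at day 7, or 9 and 2 without day 7 vehicle replicate 1. Against day 1, 1 was more negative and 9 more positive. Matrix genes other than collagens had medians of 0.074, 0.35, 0.77 and 0.73 in order of day. Of the 34, 23 were more positive and 1 more negative at day 2 than at day 1, and 9 more positive and 4 more negative than at day 7.

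**Figure D3:**
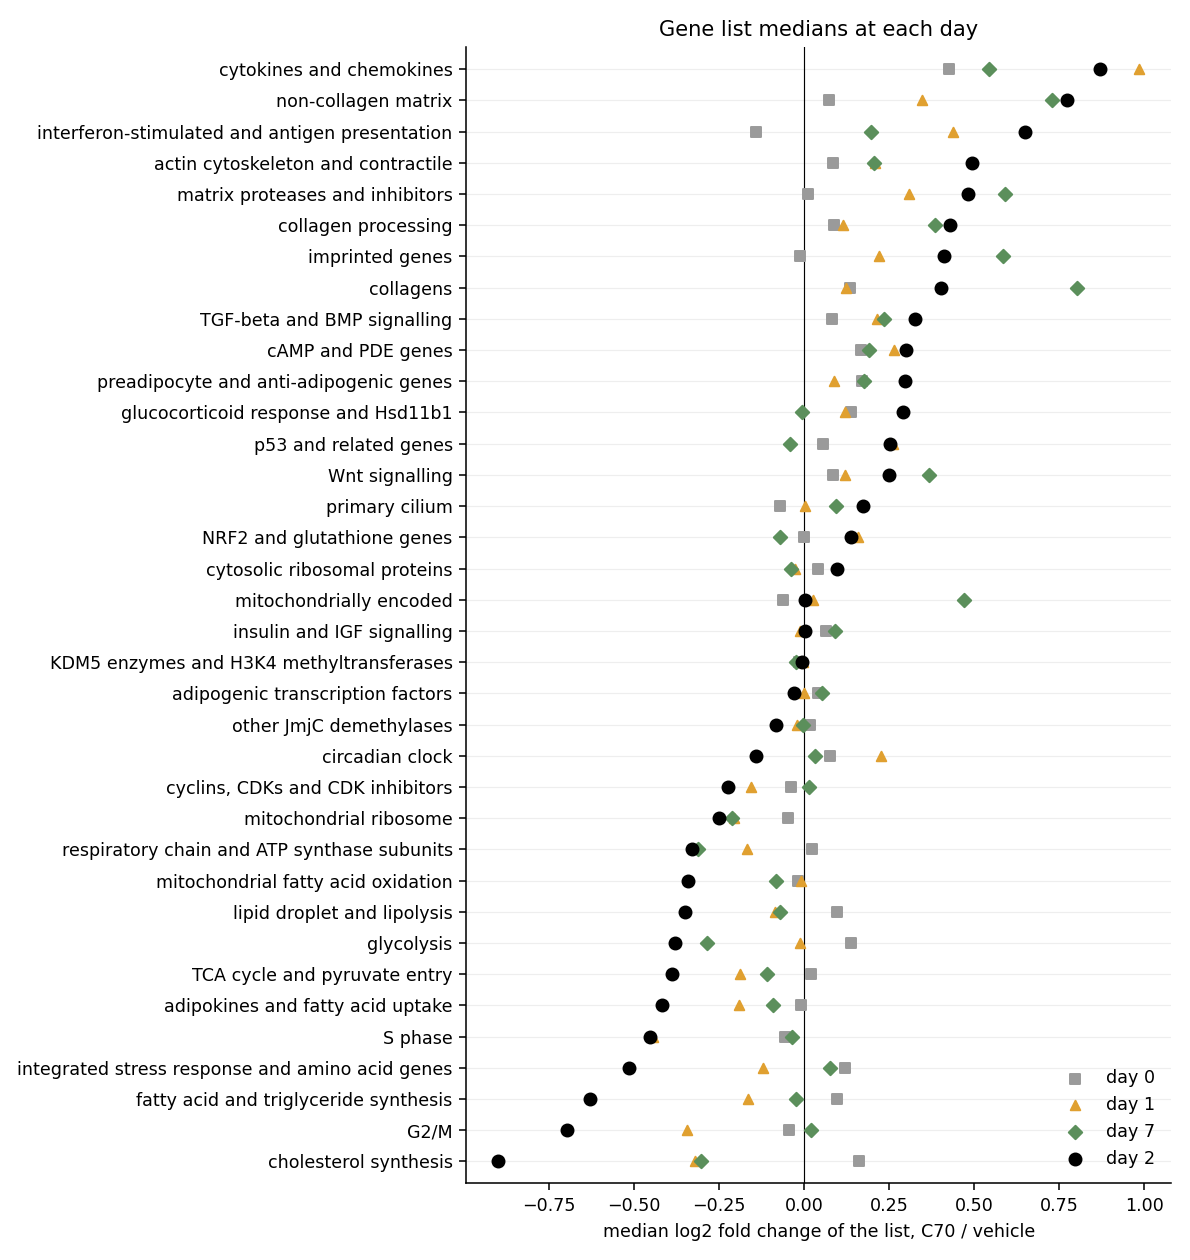
Each row is 1 of 36 gene lists and each symbol its median log2 fold change of C70 over vehicle at day 0 (grey squares), day 1 (yellow triangles), day 2 (black circles) or day 7 (green diamonds). At day 2 the cholesterol synthesis list is at -0.90 and the G2/M list at -0.70, each lower than at the other 3 days.

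The courses of 4 genes show the levels behind such differences. In vehicle, Thrsp had means of 0.227, 3.78, 103 and 721 CPM at days 0, 1, 2 and 7, and after C70 0.322, 1.72, 17.3 and 934 CPM. C70 was lower at day 2 and higher at day 7, and the 2 effects differed by -2.95 on the log2 scale, or by -3.06 without day 7 vehicle replicate 1 (adjusted P = 5.24e-16 and 4.47e-22 in edgeR's quasi-likelihood test). Adipoq reached 493 CPM in vehicle and 265 CPM after C70 at day 2, and 1339.6 and 1704 CPM at day 7, when its log2 fold change was 0.35, or 0.46 without that library. Crocc2 in vehicle had 6.56, 31.9 and 9.605 CPM at days 0, 1 and 2, against 19.5, 247 and 277 CPM after C70, and 0.563 and 1.14 CPM at day 7 in vehicle and C70. Dcn went from 424 CPM at day 0 to 41.3 CPM at day 2 in vehicle, and from 375 to 245 CPM after C70, so both levels fell, and that of vehicle further.

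**Figure D4:**
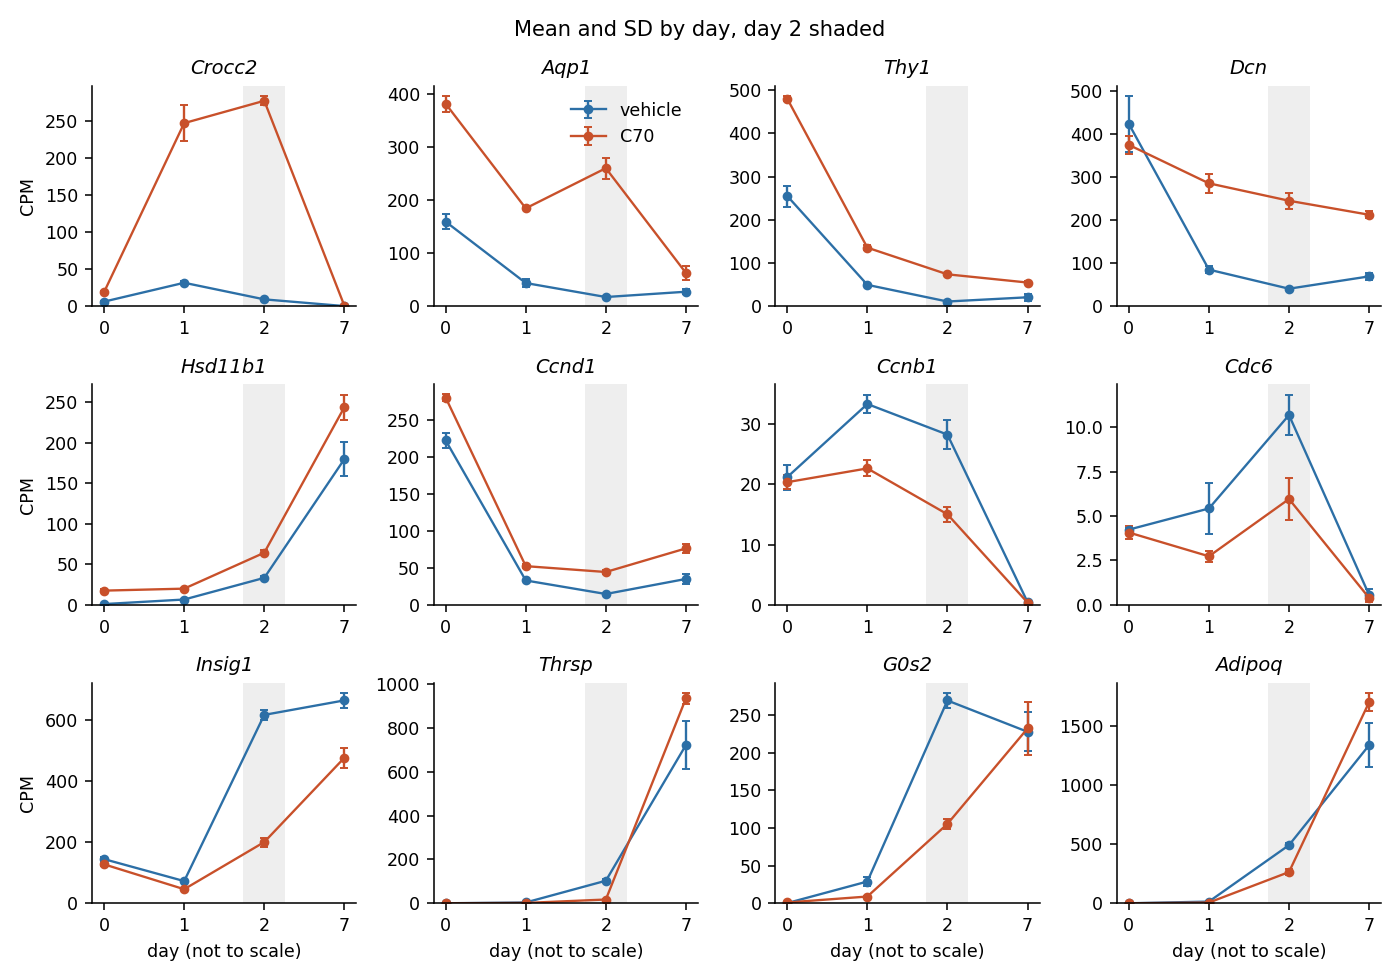
Group means of CPM with SD bars at days 0, 1, 2 and 7 (3 or 4 libraries each, days not spaced to scale, axes from 0), with vehicle in blue, C70 in orange and day 2 shaded. The mean of Adipoq after C70 is 265 CPM against 493 at day 2, and 1704 against 1339.6 at day 7, while that of Dcn is above vehicle at both days.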

How the data were processed

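Counts per gene were deposited by the authors as one table of 29 libraries and 11959 genes. The table is labelled normalized, but its values are whole numbers whose totals differ between libraries, so they were analysed as counts. Whether the authors scaled them is not given in the sources used here. The submitters' processing notes name STAR 2.7.2a, GRCm38 and edgeR 3.26.8. The counting program, the use of strand and the low-gene filter are not given in the sources used here. Every tabled gene exceeded 1 CPM in at least 20 libraries, so genes low throughout were not analysed. Libraries were grouped by day and treatment from their labels.

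All libraries were fitted together in edgeR 4.0.16 (quasi-likelihood test, TMM factors, 8 groups, no covariate), and day 2 C70 was contrasted with day 2 vehicle. Adjusted P values cover all tabled genes. Interaction contrasts compared the day 2 difference with those of days 0, 1 and 7. In simulated counts all groups shared 1 mean per gene, except that 200 of 11959 genes were changed 2-fold up or down in day 2 C70. Of the 200, 197 were recovered, with 6 false calls. This does not measure recovery near the fold threshold, or with as many changed genes as in the data. Alternatives used limma 3.58.1, DESeq2 1.42.0, other size factors, filters, thresholds and replicate blocks, and left out each library. Plots used matplotlib 3.10.9.

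The members and lists were chosen with earlier results of these data known. Genes were named by rule: the 12 largest rises and falls with groups apart and above the median level, genes the study names, the 3 largest called changes each way in each list with up to 3 further members, and the 5 largest differences each way from each other day. The list members Snai2, Gata2, Irf4, Zfp521, Pnpla2, Plin1, Plin4, Cfd, Lpl, Retn, Cd36, Cdkn2c, Cdkn2d, Fn1, Fbn1, Sparc, Col1a1, Col4a1, B2m, H2-K1, H2-T23, Tap1, Tap2, Tapbp, Irf9, Csf1, Cxcl12, Nfkbia, Tnfaip3, Gli2, Ift88, Crocc, Peg3, Ndn and Grb10 were added after their values were seen, and their calls were not followed through the alternatives. Reads of genes that overlap a gene on the other strand (among them Gpd1, Mvd, Cyp51, Fdft1, G0s2, Syt12, Pparg and Cebpa), or that have processed pseudogenes (among them Ccnb1, Ccnb2, Slc25a5, Cycs, Ldha and Trp53), may have been shared. Some genes that met the naming rule are not reported here.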

Additional observations from a re-analysis of the deposited data

Results flagged for a closer look

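Among the 4 C70 libraries at day 2, 13 of 266 sets of values held a library far from the other 3 by Dixon's criterion, where 13.3 would be set apart by chance at 1 in 20. For genes these were Thy1 in replicate 3 (71.17 CPM), Cdk4 in replicate 3 (205.2 CPM), Hadh in replicate 1 (169.2 CPM), Timp4 in replicate 2 (6.412 CPM) and Vcl in replicate 3 (256.7 CPM). The others were Mt2 in replicate 1 (178.1 CPM), Des in replicate 3 (5.387 CPM), Lipe in replicate 2 (904.2 CPM), Smo in replicate 4 (221.3 CPM) and Lgals12 in replicate 2 (58.32 CPM). Replicate 2 also stood apart in the median log2 deviation from vehicle of 3 lists, with -0.813 for cholesterol synthesis, -0.459 for integrated stress response genes and -0.032 for circadian clock genes.

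The C70 difference at day 2 was not the same as on other days, by interaction contrasts in edgeR's quasi-likelihood test, for 1656 genes against day 1, 3181 against day 0 and 2504 against day 7. The genes below were chosen from the largest of these differences. All values are the log2 fold change at day 2 minus that at the other day.

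Against day 1 the difference was more negative at day 2 for Mcam, a cell adhesion molecule (-1.51), Pdzd2 (-1.47), Thrsp (-1.44), Pqlc3 (-1.39) and Mvd (-1.27). Mcam had a log2 fold change of 0.29 at day 1 and -1.22 at day 2. It was more positive at day 2 for Crocc2 (1.90), Aqp1 (1.81), Lgals12, a galectin of lipid droplets (1.34), Sparcl1, a matrix protein (1.33), and Thy1 (1.252). Lgals12 was lower after C70 at both days, with -1.95 at day 1 and -0.61 at day 2.

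Against day 0 the difference was more negative at day 2 for Mc5r, a melanocortin receptor (-4.74, with a standard error of 1.56), G0s2 (-3.18), Hsd11b1 (-3.15) and Thrsp (-3.05). Hsd11b1 was higher after C70 at both days, with log2 fold changes of 4.10 at day 0 and 0.95 at day 2. It was more positive at day 2 for Crocc2 (3.27), Spp1 (3.09), Apod (2.92), Dcn (2.75) and Aqp1 (2.62).

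Against day 7 the difference was more negative at day 2 for Thrsp (-2.95), Gpd1 (-2.13), Syn2, a synapsin (-1.47), and Tmem120b (-1.39). Gpd1 had a log2 fold change of 0.099 at day 7. The C70 difference was more positive at day 2 for Crocc2 (3.81, standard error 0.40), Eno3 (3.08), Syt12 (2.696), Aqp1 (2.69) and Cd33 (2.36, standard error 0.66). Cd33 and Crocc2 were low in day 7 vehicle. Cd33 had 0.116 CPM in replicate 1 and a mean of 0.175 CPM in the rest of that group, and Crocc2 0.698 and 0.518 CPM.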

How the results depend on the processing

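Counts of called genes moved by over 1.5 times when the threshold was changed. With adjusted P alone 6064 genes were called at day 2, 3041 of them lower, and 49.9% were higher. With a fold change over 1.5 the count was 1740 (1182 higher, 558 lower), and with a test against the fold threshold itself (glmTreat) 2189, of which 807 were lower, and the shares that were higher were 67.9% and 63.1%. For the differences from days 1, 0 and 7, the counts were 638, 1645 and 1134 with a fold change over 1.5, and 455, 1613 and 973 with glmTreat. Other size factors gave 3668 and 3635 calls, a mean CPM of 5 or more 3121, limma-trend 3557 and DESeq2 3673.

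Leaving out each of the 29 libraries in turn gave 3484 to 3688 calls at day 2, 1950 to 2117 higher and 1508 to 1652 lower. The differences from days 1, 0 and 7 ran from 1439 to 1854, 2999 to 3291 and 2355 to 2617. Replicate numbers did not pair the libraries (r of same-numbered pairs 0.042, 0.026 and -0.027), and a replicate block gave 3589 calls, or 3608 against 3685 without it in the day 2 libraries alone. Of the 229 genes named by rule, 216 kept their call in every setting that held the gene at the main thresholds, 13 did not, and no called gene changed sign. Named genes with a mean under 5 CPM were absent from the setting with that filter, so their calls were not checked there. The changed thresholds above were not followed gene by gene. The medians of 3 lists near 0 (KDM5 enzymes, mitochondrially encoded and insulin genes) changed sign in a setting. The causes of these changes were not tested. Depth limits the genes under 1 CPM in a group, such as Gli1 and Wnt6.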

Other observations

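Some transcripts, chosen after their values were seen, set day 2 vehicle replicate 1 apart from vehicle replicates 2 and 3. Lars2, a mitochondrial tRNA synthetase gene, had 1783 CPM there and 836 and 889.97 CPM in the other 2. In the C70 libraries it had 1068, 803, 859.96 and 1385 CPM, highest in replicate 4. mt-Rnr2, the large mitochondrial ribosomal RNA, had 3489 CPM against 2076 and 2210 CPM, and 2385, 2204, 1909 and 2537 CPM in the C70 libraries, again highest in replicate 4. Bc1, a small noncoding RNA, had 84.0 CPM against 191 and 229 CPM, and 284, 339, 297 and 276 CPM in the C70 libraries.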
